A study of Homo sapiens with 6 samples.

Results

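The genes of integrins, laminins and other basement membrane proteins were compared between control and CLs-treated cultures by RNA-seq. The 37 genes were taken from the 40205 gene symbols of the count file by symbol, of which 31 passed the filter on low counts. They comprise 10 alpha and 6 beta integrin chains, 9 laminin chains and 3 laminin-related or matricellular genes (NTN4, TINAGL1 and MAMDC2). The others are 4 linkers and proteoglycans, and 5 collagen chains, those of collagen IV and COL18A1. Cells labelled HepG2, a human liver cancer line, were left untreated (Control-1 to Control-3) or exposed for 24 h to cationic liposomes (CLs-1 to CLs-3), made of the cationic lipid DOTAP, cholesterol and a PEG-lipid. The dose of CLs was 120 μM by the sample labels, while the study's text gives the same number in μg/ml in some places and in μM in others, so the unit of the dose is uncertain. The study calls its samples independent, but neither the labels nor its methods say whether the 3 samples of a group were separate cultures, so p-values measure the spread between these samples, which may be technical.

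Basement membranes are thin sheets of matrix under epithelial cells. Laminins, which are trimers of an alpha, a beta and a gamma chain, form a network that is held by receptors at the cell surface, and collagen IV forms a further network that nidogens and perlecan join to the laminins. Integrins, which are pairs of an alpha and a beta chain, bind these networks from outside and the actin or keratin cytoskeleton from inside. In healthy liver, the space next to hepatocytes holds little laminin.

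The libraries held 11418527 to 13998946 counted reads. Levels are given as CPM, counts scaled to a common library size with TMM factors. Without these factors, 3 counts are 0.214 to 0.263 CPM. The label of the cells was checked against 9 hepatocyte genes that HepG2 cells are known for, and these were nearly absent. The sum over ALB, AFP, APOB, APOH, TF, SERPINA1, FGB, HNF4A and TTR was 0 to 12 counts in the 5 samples other than CLs-1 and 74 counts in CLs-1, with APOH and TTR at 0 throughout. The cultures are therefore called by their label and not described as hepatocyte-like. CLs-1 also stood apart: its reads included 1044 counts of the collagen gene COL1A2 and 451 of SPARC, a matrix glycoprotein, against at most 2 and 6 in any other sample. Among other fibroblast or stromal genes, COL3A1 (7456 to 11358 counts), COL1A1 (764 to 2472) and PDGFRB (167 to 275) had reads in every sample. DCN, LUM and THY1 had 19, 7 and 58 counts in CLs-1 and at most 5, 0 and 1 in any other. Of the steroidogenic genes, STAR, CYP11A1 and HSD3B2 had 290, 151 and 24 counts in CLs-1, against at most 3, 29 and 0 elsewhere. CYP17A1 and CYP11B1 had at most 1. The sum of the 3 hemoglobin genes HBA1, HBA2 and HBB reached 476 counts in CLs-1 and no more than 4 in the others. In contrast, the endothelial markers PECAM1, VWF, CDH5 and KDR summed to at most 5 counts in every sample except Control-3. That sample had 43, of which 36 were of CDH5. The part of these reads in the results below was not tested. Log2 fold changes without CLs-1 are given for the called genes. Beside another gene's printed log2 fold change they are given where leaving CLs-1 out turned its sign or changed it by over 1.5 times. Members given only by levels or by ranges over fits have no such value.

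After CLs, 3 of the 31 tested genes fell and none rose. TINAGL1 fell to 0.191 of its control level, MAMDC2 to 0.458 and NTN4 to 0.546. All 3 encode secreted matrix proteins that are neither chains of integrins, laminins nor collagens. The members were chosen with earlier results of these data known, and the laminin-related or matricellular role holds only these 3 genes. Their number and this contrast with the chains are therefore descriptions and no test of the set. None of the 26 tested integrin, laminin and collagen chains passed the criteria, and their median log2 fold change was -0.03, against 0.01 over all genes tested. Tests were made in edgeR (quasi-likelihood F test, Benjamini-Hochberg adjustment over 15047 genes), and genes were called at an adjusted p-value under 0.05 with a fold change above 1.5 or below 0.67. By these criteria 0.0731% of all genes tested were lower and 0.0133% were higher. The unadjusted p-value was under 0.05 in 4 of the 31, the 3 called genes and LAMA5, against 5.81% of all genes tested. With DESeq2's Wald test the same 3 genes passed and again none was higher, against 0.611% of all genes lower and 0.103% higher. In bulk samples, fewer cells that express a gene and less RNA of it per cell cannot be told apart.

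TINAGL1 encodes a secreted glycoprotein related to cathepsins that binds to matrix and to integrins. It had 33.9, 32.0 and 41.1 CPM in the control samples and 5.89, 8.90 and 5.61 CPM in the CLs-treated samples, in the order of their numbers here and below. The lowest control sample thus lay far above the highest CLs-treated sample. The log2 fold change was -2.39 (standard error 0.21, edgeR quasi-likelihood adjusted p = 0.00146), and its 95% interval ran from -2.86 to -1.93. The call held in all 6 fits that each left out 1 sample, with log2 fold changes between -2.63 and -2.28. Without CLs-1 the adjusted p-value was 0.0397 at a log2 fold change of -2.29.

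MAMDC2, which encodes a secreted proteoglycan with MAM domains, was measured at 430.1, 440.1 and 310.4 CPM in the control samples. In the CLs-treated samples it was at 181.0, 204.8 and 155.4 CPM. The groups did not overlap, although the third sample was the lowest in each of them. The log2 fold change was -1.13 (standard error 0.17, 95% interval -1.498 to -0.753, edgeR quasi-likelihood adjusted p = 0.0440). It passed in 1 of the 6 fits that left out a sample, the fit without Control-3 (edgeR adjusted p = 0.0166). Without any of the other 5 samples its adjusted p-value was between 0.105 and 0.214, at log2 fold changes of -1.23 to -1.03, and without CLs-1 it was 0.156 at -1.13.

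NTN4 encodes netrin-4, a relative of the laminins that binds the laminin gamma 1 chain and can loosen laminin networks. Its CPM was 123.8, 120.5 and 132.9 in the control samples and 69.4, 62.8 and 73.6 in the CLs-treated samples. Both groups were tight, with means of 125.8 ± 6.41 and 68.6 ± 5.43 CPM (SD, n = 3 in each group). The log2 fold change was -0.87 (standard error 0.13, 95% interval -1.16 to -0.59, edgeR quasi-likelihood adjusted p = 0.0440). It passed in none of the 6 fits that left out a sample, where the adjusted p-value was between 0.0830 and 0.188 and the log2 fold change between -0.93 and -0.81 (0.0895 and -0.88 without CLs-1). Scaling to library totals alone also moved NTN4 and MAMDC2 past the threshold, to adjusted p-values of 0.0583 and 0.0564.

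In TINAGL1, MAMDC2 and NTN4, every CLs-treated sample was lower than every control sample, which was so for 6.18% of all genes tested. In none of the other 28 tested members did the groups separate in either direction, against 11.5% of all genes tested (5.34% with every CLs-treated sample higher). An exact two-sided permutation test gave p = 0.10 for each of the 3 genes, the smallest that 3 samples against 3 allow.

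**Figure D1:**
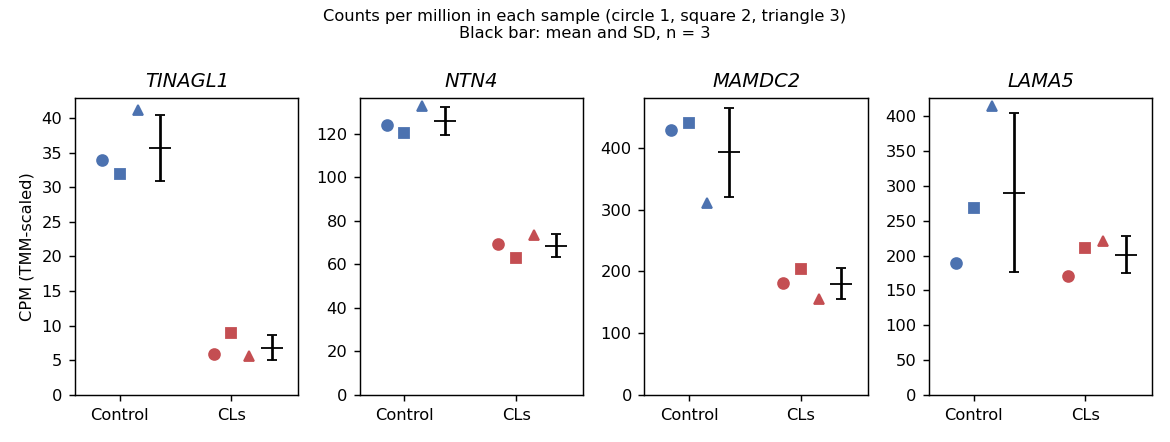
TMM-scaled CPM of TINAGL1, NTN4, MAMDC2 and LAMA5 in the 3 control (blue) and 3 CLs-treated (red) samples, with sample numbers as circle, square and triangle and the mean and SD of each group in black. The groups separate in TINAGL1, NTN4 and MAMDC2 and overlap in LAMA5, where Control-3 at 414.2 CPM sits far above the other samples.

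The sequences around the starts of the 3 called genes are shown because these are the members that passed the criteria. RefSeq windows of 300 bases (250 before and 50 after a start, build GRCh38.p14) matched 31 of the 37 members, with 2 starts for each of the 3 called genes. The windows were searched on both strands for GGAATG, the core motif of the TEAD factors, for TGANTCA, the motif of AP-1, and for the GC box GGGCGG, whose matches did not overlap between motifs in the windows of the 3 genes. The motifs were chosen with earlier results of these data known. For each gene the window that holds GGAATG is printed, with that motif or its reverse complement in capitals.
TINAGL1, chr1:31577895-31578194, plus strand: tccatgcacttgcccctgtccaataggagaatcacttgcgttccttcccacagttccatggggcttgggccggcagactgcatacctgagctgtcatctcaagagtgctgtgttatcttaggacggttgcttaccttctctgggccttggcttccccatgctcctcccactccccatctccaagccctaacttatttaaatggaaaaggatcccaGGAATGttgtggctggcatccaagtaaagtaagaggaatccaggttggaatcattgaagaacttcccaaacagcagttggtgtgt
NTN4, chr12:95791106-95791405, minus strand: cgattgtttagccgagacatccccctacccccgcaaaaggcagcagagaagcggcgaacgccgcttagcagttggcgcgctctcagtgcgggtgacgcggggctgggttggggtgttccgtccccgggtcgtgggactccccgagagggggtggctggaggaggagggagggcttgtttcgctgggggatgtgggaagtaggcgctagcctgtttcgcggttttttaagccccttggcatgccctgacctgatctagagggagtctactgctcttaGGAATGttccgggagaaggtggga
MAMDC2, chr9:70043331-70043630, plus strand: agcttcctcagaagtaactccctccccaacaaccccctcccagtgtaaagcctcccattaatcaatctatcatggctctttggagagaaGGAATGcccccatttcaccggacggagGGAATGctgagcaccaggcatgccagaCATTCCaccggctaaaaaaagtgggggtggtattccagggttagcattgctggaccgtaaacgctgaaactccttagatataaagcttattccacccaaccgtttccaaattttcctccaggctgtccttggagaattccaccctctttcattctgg
The window of MAMDC2 held the motif at 3 places, with first bases at -161, -134 and -107 relative to the start. At least 3 matches were found in 0.128% of all 35116 windows. The windows of TINAGL1 and NTN4 held it at 1 place each, at -35 and at 26. The other window of each gene had no match to GGAATG but held GC boxes, 4 in TINAGL1, 4 in NTN4 and 2 in MAMDC2. AP-1 motifs were in none of the 6 windows. The windows of MAMDC2 overlap each other in part. GGAATG was in 14% of all windows and in at least 1 window of 15% of the 9265 tested genes that had a window. Among the uncalled tested members it was in 4 of the 24 with a window, ITGA5, ITGA10, ITGB1 and LAMA2. AP-1 motifs were in 7.71% of all windows and GC boxes in 45%. At least 1 GC box was in 78% of the tested genes with a window and in 17 of the 24 uncalled members. A match describes the letters of a window and is no evidence that a factor binds there, and which start these cells use was not tested.

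The laminin members comprised 1 gamma chain, 3 beta chains and 2 alpha chains at high levels. To compare genes, CPM was divided by the length of the merged exons of each gene. On this scale LAMC1, the gamma chain of most laminins, had the highest level of the laminin chains, at 68.3 ± 3.83 CPM per kilobase in the control group and 64.3 ± 4.77 in the CLs-treated group (SD, n = 3 in each group). The beta chains LAMB2, LAMB1 and LAMB3 followed at 40.6 ± 12.3, 34.2 ± 5.51 and 33.0 ± 6.24 CPM per kilobase in the control group, a range within the spread of the samples. The alpha chains LAMA5 and LAMA1 were at 25.4 ± 10.0 and 22.5 ± 7.16 CPM per kilobase, which also did not differ beyond their spread, and LAMA3 was at 1.82 ± 0.378. LAMA2 had 8 to 15 counts in each sample, and LAMA4 had at most 4 and was not tested.

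None of the 8 tested laminin chains passed the criteria, and their log2 fold changes lay between -0.53 and 0.10. LAMC1 was at 506.5, 542.3 and 566.7 CPM in the control samples and at 544.0, 468.7 and 508.3 CPM in the CLs-treated samples. The groups overlapped, and the 95% interval of its log2 fold change of -0.09 ran from -0.38 to 0.20, which leaves out a change of 1.5-fold in either direction. Without CLs-1 it was -0.14. LAMB2 was at 158.9, 242.1 and 300.4 CPM in the control samples and at 185.4, 270.0 and 242.2 CPM after CLs, with a log2 fold change of -0.01 (95% interval -0.49 to 0.47) that became 0.13 without CLs-1.

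LAMA5, an alpha chain of laminins found in most adult epithelia, had the largest difference among the laminin chains. It had 189.0, 268.5 and 414.2 CPM in the control samples and 170.8, 211.6 and 220.5 CPM after CLs. Control-1 lay within the CLs-treated samples, so the groups overlapped. The log2 fold change was -0.53 (standard error 0.24, unadjusted p = 0.0482, edgeR quasi-likelihood adjusted p = 0.847). Without Control-3 it was -0.19, and the exact permutation test over all 6 samples gave p = 0.30. LAMA1, the other abundant alpha chain, had 233.1, 286.1 and 146.2 CPM in the control samples and 255.3, 297.5 and 161.6 CPM in the CLs-treated samples. Its log2 fold change of 0.103 was 0.049 without CLs-1. In both groups the third sample was the lowest. The ratio of LAMA5 to LAMA1 counts was accordingly 0.811 and 0.938 in Control-1 and Control-2 and 2.83 in Control-3, and it was 0.669, 0.711 and 1.36 in the CLs-treated samples.

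**Figure D2:**
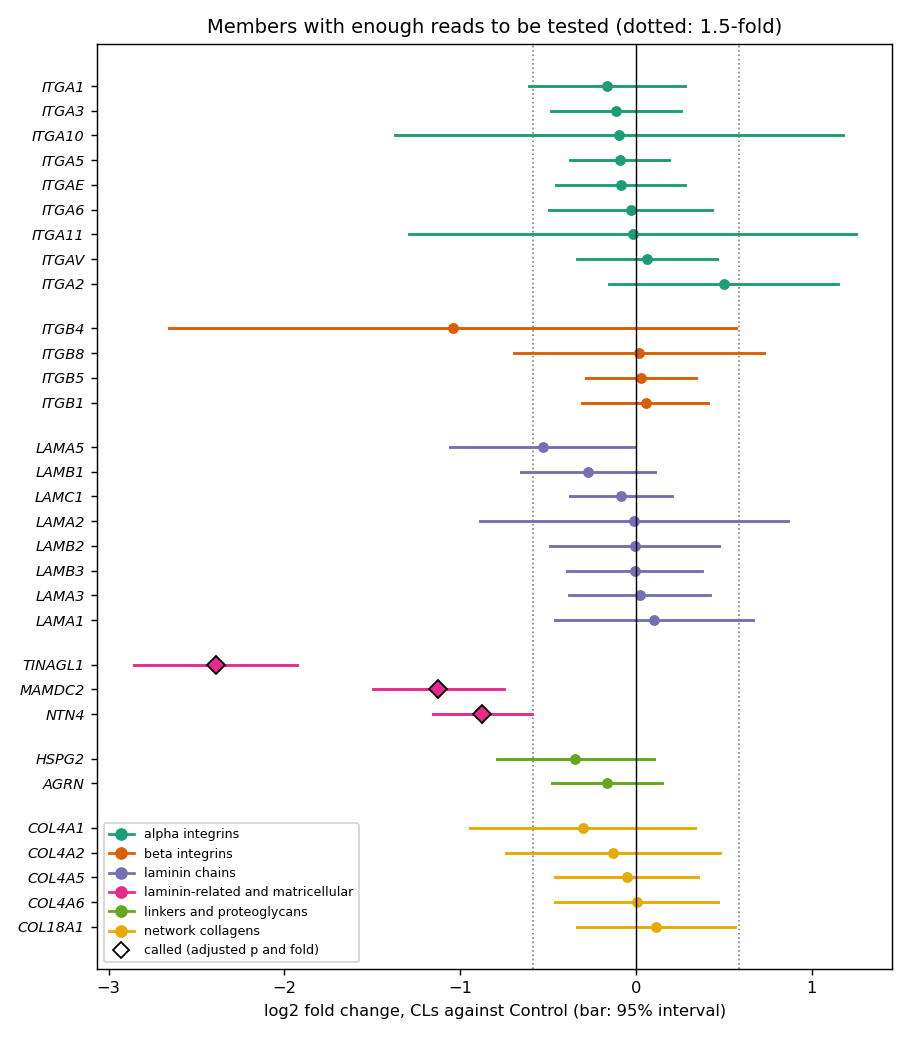
Log2 fold changes of CLs against Control for the 31 tested members by role, with 95% intervals from the edgeR fit and dotted lines at a fold of 1.5. TINAGL1 (-2.39), MAMDC2 (-1.13) and NTN4 (-0.87) are marked as called, and the other points lie between -1.04 and 0.50 with intervals that reach or cross 0, apart from that of LAMA5, which ends at -0.005.

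The integrin chains were led by 2 beta chains. ITGB5, which pairs with the alpha V chain to bind vitronectin, was at 118.1 ± 11.8 CPM per kilobase in the control group, and ITGB1, the partner of most alpha chains, at 114.7 ± 8.69 (SD, n = 3 in each group). These levels did not differ beyond their spread. ITGA3, whose pair with beta 1 binds laminin, was the most abundant alpha chain at 49.98 ± 6.96 CPM per kilobase. It was followed by ITGAV at 13.6 ± 1.98, ITGAE at 12.9 ± 2.60 and ITGA5 at 10.7 ± 0.636 CPM per kilobase, neighbours that lay within each other's spread or, for ITGAE and ITGA5, within that of ITGAE. ITGAE is known as the partner of beta 7, whose gene ITGB7 had at most 1 count in any sample. ITGA1 and ITGA6 were at 5.79 ± 1.56 and 4.59 ± 0.200 CPM per kilobase, and the remaining alpha and beta chains were at 2.13 or less.

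None of the 13 tested integrin chains passed the criteria, and in none did the groups separate. ITGB1 was at 486.2, 448.5 and 418.0 CPM in the control samples and at 581.5, 409.6 and 412.7 CPM after CLs. CLs-1 was the highest sample, and the log2 fold change of 0.05 (95% interval -0.31 to 0.41) became -0.13 without it. Reads of ITGB1 could have been split with its pseudogene ITGB1P1, whose counts were 15.9% to 21.6% of those of ITGB1. ITGB5 was at 464.9, 516.9 and 567.8 CPM in the control samples and 482.1, 508.1 and 588.2 CPM after CLs. Its log2 fold change was 0.03 (95% interval -0.29 to 0.34; 0.09 without CLs-1), and the third sample was the highest in each group. ITGA3 was at 229.5, 220.2 and 283.2 CPM in the control samples and at 191.6, 208.3 and 277.4 CPM in the CLs-treated samples, a log2 fold change of -0.11 (95% interval -0.48 to 0.26; -0.01 without CLs-1).

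ITGB4, which pairs with alpha 6 in hemidesmosomes, had the largest difference among the integrins and the widest spread. The control samples held 32, 60 and 369 counts of it and the CLs-treated samples 73, 36 and 127. Control-3 alone lay above the CLs-treated samples. The log2 fold change was -1.04 (standard error 0.73, edgeR quasi-likelihood adjusted p = 0.968), and without Control-3 it was 0.68. ITGA2, a collagen receptor chain, had 65, 64 and 92 counts in the control samples and 164, 60 and 118 counts after CLs, a log2 fold change of 0.50 (edgeR adjusted p = 0.939). CLs-1 was its highest sample, and without CLs-1 the value was 0.29. Of the 28 members that were not called, 15 had a 95% interval that lay within a fold of 1.5 in either direction, and 23 had an interval within a fold of 2. Among all genes that were not called, the interval lay within a fold of 1.5 in 49.1% and within a fold of 2 in 12514 of 15034. For the other 13 members, ITGB4 and ITGA2 among them, the interval reached a fold of 1.5, so a change of that size was not left out at this spread and depth.

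**Figure D3:**
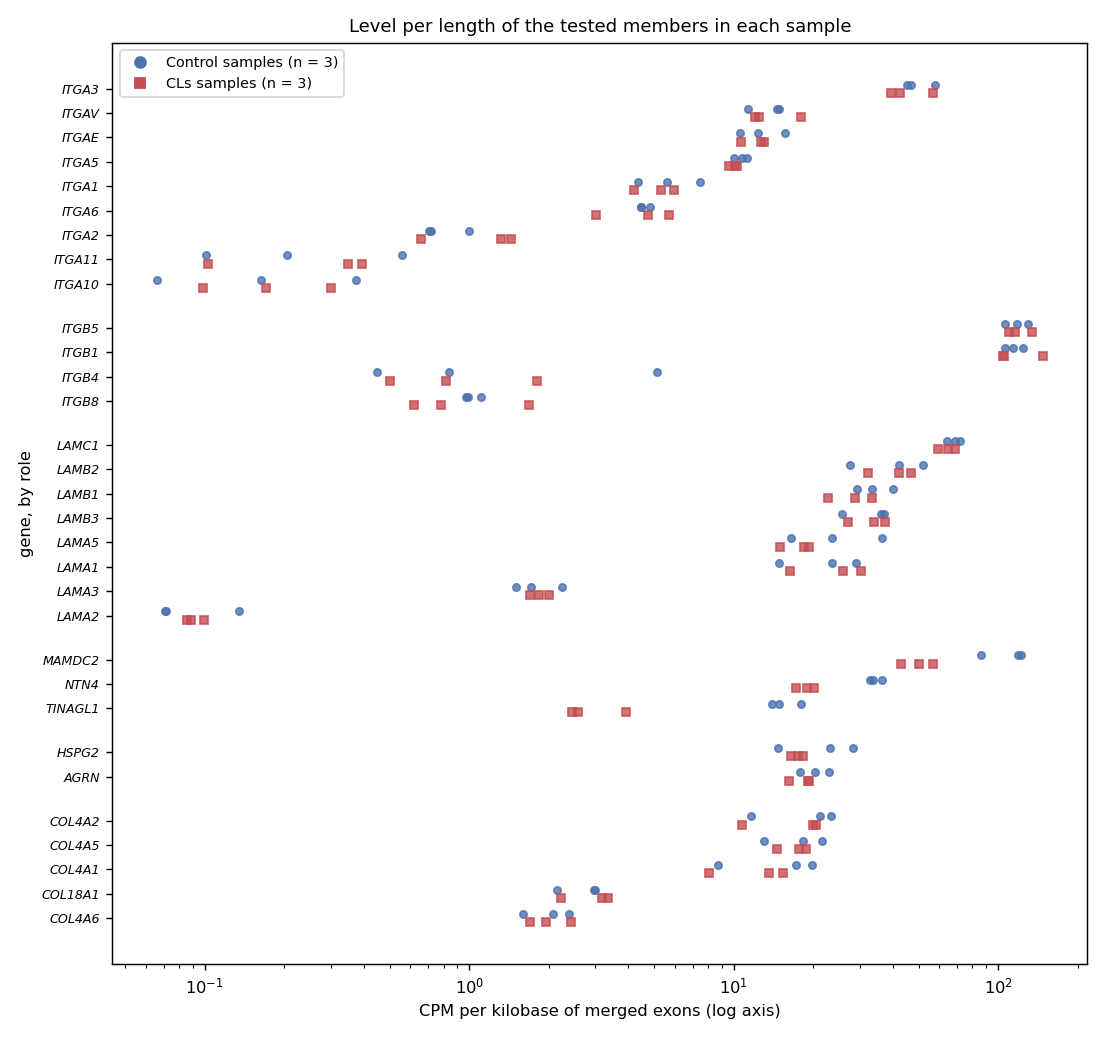
Level per length of the 31 tested members, as CPM per kilobase of merged exons on a log axis, with each control (blue circles) and CLs-treated (red squares) sample as a point. ITGB5, ITGB1 and MAMDC2 have the highest control levels (118.1, 114.7 and 108.8 CPM per kilobase on average), and the points of the groups part in TINAGL1, NTN4 and MAMDC2.

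Perlecan (HSPG2) and agrin (AGRN), large heparan sulfate proteoglycans that link laminin to collagen IV and to receptors, did not pass the criteria. HSPG2 had 211.0, 332.8 and 404.8 CPM in the control samples and 261.1, 250.1 and 235.3 CPM in the CLs-treated samples. The control samples spanned the CLs-treated ones, and the log2 fold change was -0.35 (standard error 0.20, edgeR quasi-likelihood adjusted p = 0.939). AGRN was at 131.7, 150.1 and 169.6 CPM and at 140.7, 142.1 and 120.0 CPM, a log2 fold change of -0.16 with a 95% interval from -0.48 to 0.15. The nidogens NID1 and NID2 had too few reads to be tested. NID1 had 1, 0 and 1 counts in the control samples and 8, 0 and 2 after CLs. NID2 had 0 counts in all 3 control samples, which allows up to 0.255 to 0.258 CPM without the TMM factors, and 7, 1 and 3 counts after CLs. The highest count of both was in CLs-1, the library with the reads of COL1A2 and SPARC, and the part of those reads in this difference was not tested.

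The collagen IV chains COL4A1 and COL4A2, which join into the most common collagen IV trimer, had a ratio that varied less over the samples than their levels. COL4A2 had 2.02, 2.13 and 2.29 times the counts of COL4A1 in the control samples and 2.30, 2.53 and 2.30 times in the CLs-treated samples. Each ratio after CLs was above those of the control samples, a difference that was not tested. Their common level moved more between samples than between groups. COL4A2 was at 301.5, 274.9 and 150.8 CPM in the control samples and at 265.4, 259.2 and 140.0 CPM in the CLs-treated samples, and COL4A1 was at 149.2, 129.0 and 65.9 CPM and at 115.3, 102.4 and 60.8 CPM. The third sample of each group was thus the lowest for both genes. The log2 fold changes were -0.13 for COL4A2 (95% interval -0.74 to 0.48) and -0.30 for COL4A1 (95% interval -0.94 to 0.33), and without CLs-1 they were -0.28 and -0.49. The genes start 127 bases apart on opposite strands, so their RefSeq windows share 226 bases. The window of COL4A2 is printed, because it serves both genes, with the shared bases in capitals (build GRCh38.p14).
COL4A2, chr13:110307034-110307333, plus strand: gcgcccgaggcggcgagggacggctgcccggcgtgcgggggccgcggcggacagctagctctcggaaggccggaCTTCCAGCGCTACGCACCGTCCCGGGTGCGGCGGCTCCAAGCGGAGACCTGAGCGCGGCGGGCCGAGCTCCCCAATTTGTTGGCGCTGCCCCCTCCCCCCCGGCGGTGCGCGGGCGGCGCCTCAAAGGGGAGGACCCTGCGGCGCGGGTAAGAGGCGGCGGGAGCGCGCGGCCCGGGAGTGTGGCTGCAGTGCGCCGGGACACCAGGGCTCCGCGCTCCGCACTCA
COL4A5 and COL4A6, a further pair with starts 380 bases apart on opposite strands, were at 17.6 ± 4.29 and 2.02 ± 0.399 CPM per kilobase in the control group. Their log2 fold changes were -0.05 and 0.003 (95% intervals -0.46 to 0.35 and -0.46 to 0.47), and without CLs-1 they were 0.05 and 0.12. COL18A1, the source of endostatin, had a log2 fold change of 0.11 (95% interval -0.34 to 0.56), which was 0.003 without CLs-1. With the length of the longest transcript in place of the merged exons, the control level of COL4A2 was 37.3 and not 18.7 CPM per kilobase. Its mean was the highest of the member collagen chains by either length. By merged exons this lead lay within the spread, at 18.7 ± 6.20 against 17.6 ± 4.29 for COL4A5 and 15.2 ± 5.78 for COL4A1 (SD, n = 3).

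**Figure D4:**
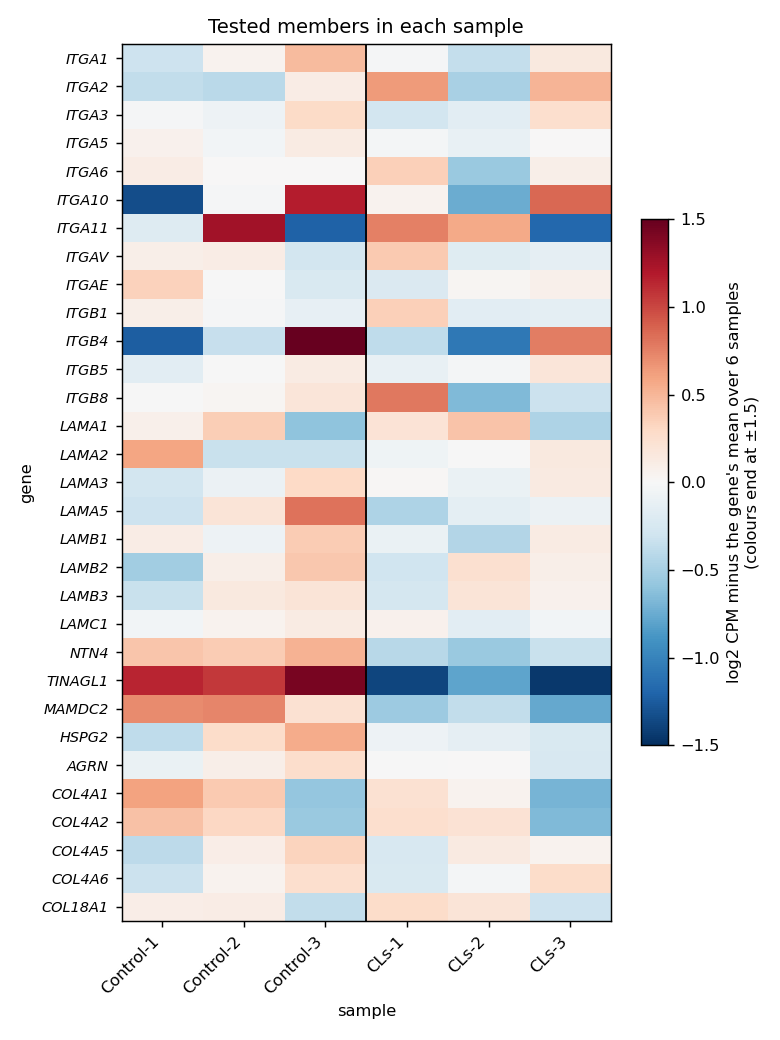
Log2 CPM of each of the 31 tested members in the 6 samples minus the mean of the gene over these samples, with blue for low and red for high values and colours ending at ±1.5. TINAGL1, NTN4 and MAMDC2 change colour between the groups, while LAMA1, COL4A1 and COL4A2 are low in Control-3 and CLs-3 alike, and ITGB4 and LAMA5 are highest in Control-3.

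The third samples were compared with the others of their groups. In 6 of the 31 tested members (ITGA11, LAMA1, MAMDC2, COL4A1, COL4A2 and COL18A1) the third sample was the lowest of its group in both groups, against 15.7% of all genes tested. In 11 members, among them ITGA1, ITGA3, ITGB5, LAMA3, LAMA5 and NTN4, the third sample was the highest in both, against 14.4% of all genes tested. Control-3 was the highest of the 6 samples in 15 of the 31 members, against 21.4% of all genes tested, and CLs-1 was the highest in 6, against 25.7%. These are descriptions of the samples and were not tested.

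The other members without enough reads were ITGA7, ITGB3, ITGB6 and LAMA4. ITGA7 had 2 to 4 counts in the control samples and 3 to 10 after CLs, ITGB6 had 4 to 9 and 8 to 11, and ITGB3 had 0 to 6 and 1 to 10. ITGA10, ITGA11 and LAMA2 passed the filter with at most 66 counts in any sample, and the 95% interval of their log2 fold changes reached beyond a fold of 1.5 in both directions. ITGA1 shares exon sequence with PELO on the same strand in the GENCODE annotation, so its reads could have been divided between them.

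Further genes of the same system were taken from lists of 80 symbols, of which 78 were in the file and 56 had enough reads. None of the 56 passed the criteria in either direction, and their median log2 fold change was -0.10. By the unadjusted p-value alone (under 0.05), 11 of them were lower and 1 was higher, against 3.62% and 2.19% of all genes tested. Among the other laminin receptors, dystroglycan (DAG1) was at 286.7, 325.5 and 316.7 CPM in the control samples and at 259.0, 183.8 and 200.8 CPM after CLs. Every CLs-treated sample was lower than every control sample, which was so for 6.18% of all genes tested. The log2 fold change was -0.53 (edgeR quasi-likelihood adjusted p = 0.365). BCAM, a receptor for laminins with the alpha 5 chain, and the proteoglycan SDC2 had log2 fold changes of -0.57 and -0.48 (edgeR adjusted p = 0.790 and 0.845). The groups overlapped in both genes. In BCAM, Control-3 at 48.45 CPM lay above the other samples, which were at 20.56 to 29.88 CPM.

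Of the proteins that tie integrins to actin, vinculin (VCL) was at 347.7, 327.9 and 361.4 CPM in the control samples and at 240.5, 223.3 and 262.3 CPM in the CLs-treated samples. Its groups did not overlap either, with a log2 fold change of -0.51 (edgeR quasi-likelihood adjusted p = 0.260). Talin (TLN1), filamin (FLNA) and LIMS2 had log2 fold changes of -0.34, -0.48 and -1.18 (adjusted p = 0.699, 0.530 and 0.453). The matrix ligands THBS1 and FRAS1 had log2 fold changes of -0.75 and -0.46, the protease ADAMTS1 -0.43 and the protease inhibitor TIMP3 -0.50, with adjusted p-values from 0.327 to 0.818 in the same test. The groups also did not overlap in TLN1, FLNA, LIMS2, FERMT1, FRAS1, TIMP3 and PXDN, all lower, and in SDC4, which was higher. Over all genes tested, such separation was found in 6.18% in the lower and 5.34% in the higher direction. MMP2, a protease that degrades collagen IV, was the gene that was higher by the unadjusted p-value. It had 20, 15 and 6 counts in the control samples and 204, 12 and 23 after CLs, the first of these in CLs-1. Its log2 fold change of 2.30 (adjusted p = 0.654) was 0.37 without CLs-1. Fibronectin (FN1), the main ligand of the alpha 5 beta 1 pair, was likewise high in CLs-1, with 4991 counts against 282 to 701 in the other samples, and its log2 fold change of 1.496 (adjusted p = 0.889) turned to -0.63 without CLs-1. LAMC3, a gamma chain outside the members, had 857 to 1097 counts in every sample and a log2 fold change of 0.02 (0.06 without CLs-1). No gene of the lists for collagen IV assembly or for hemidesmosomes was at an unadjusted p-value under 0.05 by edgeR's quasi-likelihood test.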

How the data were processed

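RNA-seq libraries of 3 control and 3 CLs-treated samples were sequenced on an Ion Proton. The authors checked the reads with FastQC, mapped them with MapSplice and deposited whole-number counts of reads per gene symbol, without normalization or pooling. The submitters' processing notes name HTSeq 0.6.1 and the build hg19, and the strand setting and the treatment of reads matching several places are not given in the sources used here. RPKM values and EBSeq, used by the authors for their comparisons, are not part of these counts.

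The comparison of the groups used edgeR 4.0.16 (R 4.3.3), its quasi-likelihood F test with condition as the factor, after filterByExpr (15047 of 40205 genes left) and TMM scaling. Standard errors were derived from the F statistic and 95% intervals from its total degrees of freedom. These add prior degrees of freedom, estimated across genes, to the residual ones of each gene. The script was tested on simulated data. Totals were 11418527 to 13998946 counts per sample, and floors cover counting error only. Levels per length used merged exons of GENCODE v29 (GRCh38), for lengths only, and promoter windows came from RefSeq (GRCh38.p14). Alternatives were DESeq2 1.42.0, other scalings, filters and dispersions, a block for the replicate number, and fits without each sample in turn. Levels by longest transcript were added after seeing the data.

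The members and lists were chosen with earlier results of these data known. Values are given by rule for members called or at an unadjusted p-value under 0.05 and for the most abundant of each role, and for further genes at that p-value. The other genes with values, such as ITGB4, ITGA2, ITGB1, LAMA1, COL4A1, AGRN, FN1 and LAMC3, were chosen after their values were seen.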

Additional observations from a re-analysis of the deposited data

How the results depend on the processing

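TINAGL1 kept its call under every alternative tried, and MAMDC2 and NTN4 kept theirs under DESeq2, RLE and upper quartile scaling, both other filters, robust dispersion, no fold change criterion and the replicate block. With library totals only, 1 member was lower, and with a sample left out 1 to 2 were lower and 0 higher. With a sample left out fewer samples enter each fit; the cause of the other changes was not tested. Over all genes, the number lower was 11 in the main analysis, 89 with DESeq2's Wald test, 6 with library totals only, 113 with no filter on low counts, 19 with robust dispersion and 56 with the replicate block, and 2 to 6 with a sample left out. The number higher was 2, and 15 with DESeq2, 58 with no filter, 12 with the block and 1 to 3 with a sample left out. The median log2 fold change of the tested members was -0.087, -0.037 with no filter, which adds the 6 members with few reads, and -0.141 to -0.048 with a sample left out.

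Signs of uncalled members turned with a sample left out: the log2 fold change ranged from -1.68 to 0.68 for ITGB4, -0.061 to 0.101 for ITGB5, -0.13 to 0.14 for ITGB1, -0.289 to 0.006 for ITGA3, -0.15 to 0.17 for ITGAV, -0.12 to 0.33 for LAMA1, -0.22 to 0.21 for LAMB2 and -0.38 to 0.11 for COL4A2. LAMB2 was also at 0.001 with upper quartile scaling, 0.009 with library totals and 0.023 with the replicate block. None of these passed the criteria.

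The replicate numbers were checked for pairing: deviations from the group means correlated at 0.111, 0.0987 and 0.305 across genes between samples numbered 1, 2 and 3. Every sample correlated best with its own number. The second value lies just under 0.1, the limit set for pairing, so the main fit has no block. What the number stands for is not in the labels, and this limit does not settle whether the samples are pairs. With the block, the adjusted p-values of NTN4 and MAMDC2 were 0.00974 and 0.0026, and the same 3 members were called.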
